A study of Mus musculus with 10 samples.

Results

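The genes described here are 35 regulators and executors of apoptosis, namely the BCL2 family, caspases, their inhibitors, mitochondrial factors and death receptors, measured in mouse liver after phenobarbital. They were chosen by gene symbol: 85 of the 45101 probe sets on the array carried the symbol of a member, each with a single symbol, and they covered 33 of the 35 genes. No probe set was matched to Bax or Ripk1, which are not analysed here. Whole liver RNA came from 10 male B6C3F1/Crl mice (C57BL/6 male x C3H/He female), 29 to 32 days old on receipt, and after 5 days of acclimation random assignment gave 5 animals to each group. Treated mice had phenobarbital at 0.05% (w/v) in their drinking water for 28 days and were killed on the last of these; the others are labelled only as control. Phenobarbital is a barbiturate that activates the nuclear receptor CAR and is a non-genotoxic tumour promoter of the rodent liver. Each array is a separate animal, and its values are log2 expression levels, so that a difference of 1 is a doubling.

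Apoptosis is a programmed death of cells that is carried out by caspases, proteases that cut other proteins. In the mitochondrial pathway, BH3-only proteins switch on the pore formers of the BCL2 family, cytochrome c leaves the mitochondrion, and with APAF1 it activates caspase 9. BCL2 and its survival relatives hold the pore formers in check, and inhibitor of apoptosis proteins such as XIAP block caspases further down. Death receptors such as FAS start the same proteolysis from the cell surface through FADD and caspase 8, and in hepatocytes they also draw on the mitochondrial route. In liver, reduced apoptosis is one of the responses associated with promoters of rodent tumours.

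Several measures of the arrays moved with the groups. The poly-A spike-ins, bacterial transcripts added before labelling, had a mean log2 level of 5.76 to 6.58 on the phenobarbital arrays, 6.40 on control replicate 4, and 7.77 to 8.64 on the remaining controls. No label names a batch, but this split was used as a block, and the comparison then rests on the treated animals and control replicate 4, the arrays with low spike-ins ("within the low spike-in set" hereafter). There the control arm is 1 array, and its spread is taken from the other arrays. Apart from that control, the spike-in split and the treatment cannot be told apart. The log2 difference between the 3' and 5' control probe sets, a sign of RNA quality and labelling, was -0.15 to -0.03 in controls and -0.28 to -0.21 in treated arrays for Gapdh, and 1.28 to 1.78 and 1.19 to 1.33 for actin. For actin the lowest control was control replicate 4, and the other controls were 1.46 to 1.78. The upper quartile of all values was 7.39 to 7.46 in controls and 7.30 to 7.36 in treated arrays. On control replicate 4 this quartile was 7.41 and the Gapdh difference -0.15, both outside the treated range. These 2 measures thus still differed between the groups within the low spike-in set. The part of these measures in the results was not tested. None of 6 hepatocyte markers (Alb, Ttr, Apoa1, Hnf4a, Cps1 and Tat) passed the test, although Apoa1 was 14.73 to 14.79 in controls and 14.68 to 14.71 in treated livers, without overlap. Their mean log2 level was 14.04 to 14.12 in controls and 13.99 to 14.10 in treated livers. Alb, at 14.98 and 14.96, and Ttr, at 14.83 and 14.80, lay near the highest value on any array, 15.13. Hnf4a (12.59 and 12.68) and Tat (13.06 and 13.03) lay lower. The lack of calls does not show that the share of hepatocytes was unchanged.

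Of the 33 measured genes, 7 were lower in phenobarbital livers and none was higher (limma, Benjamini-Hochberg adjusted p under 0.05 over 18193 genes), while at an unadjusted p under 0.05 the counts were 9 lower and 1 higher. The 7 were the apoptosome component Apaf1, the caspase inhibitor Xiap, the executioner caspase Casp6, the BH3-only gene Bcl2l11, the inhibitor Birc3, the pore former relative Bok and the mitochondrial flavoprotein gene Aifm1. They include activators as well as inhibitors of cell death. The background over all genes was 20.3% called, 11.3% lower and 9.02% higher, so that the 21.2% of members called in either direction was close to it. Lower calls were commoner among bright genes: of the 9095 genes with a mean level above the median gene's, called the brighter genes here, 19.8% were lower and 9.21% higher, and of the 25 members among them 6 were lower (24.0%) and none higher. The members' share of lower calls was thus near that of the brighter genes. Bak1 was called higher after quantile normalization, median centring or array weighting and without control replicate 1, so the absence of higher calls depends on these choices. The median log2 change of the members was -0.07, against 0.01 over all genes, and among the brighter genes it was -0.07 for members and -0.04 for all genes. In 6 members every treated animal lay below every control, 18.2% of the members against 7.21% of all genes and 11.4% of the brighter genes. With the spike-in split as a block no member was called (0.786% of all genes were), and 4 of the 33 had an unadjusted p under 0.05 (13.3% of all genes did). All 7 called genes had a negative value there too. In the 6 without overlap this sign was fixed in advance, because every treated animal already lay below control replicate 4. It is therefore no separate support for them.

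**Figure D1:**
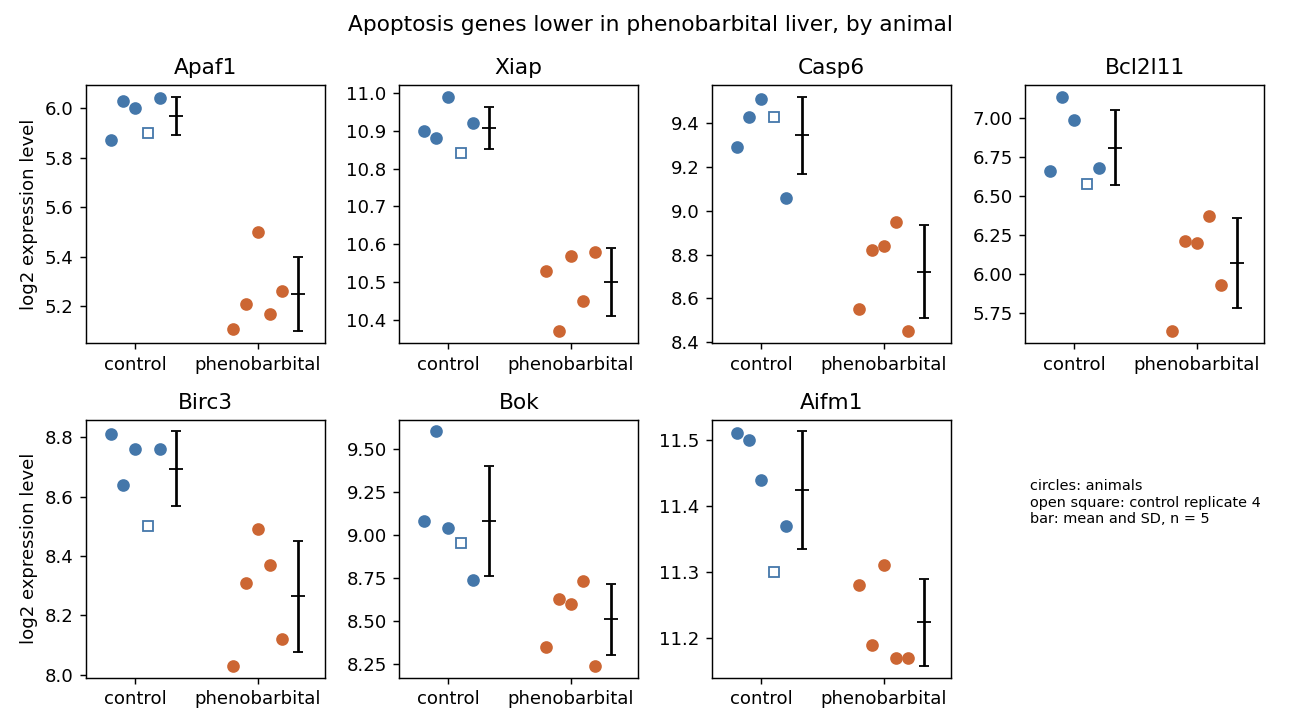
Log2 expression level (vertical axis, a separate scale for each gene) of the 7 called genes in each animal, with the mean and SD of each group (n = 5) to the right of its points. In 6 of the 7 every phenobarbital animal lies below every control; in Aifm1 the open square of control replicate 4, at 11.30, lies among the treated animals.

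Apaf1 encodes the scaffold on which cytochrome c assembles the apoptosome. Its log2 level in control replicates 1 to 5 was 5.87, 6.03, 6.00, 5.90 and 6.04, and in phenobarbital replicates 1 to 5 it was 5.11, 5.21, 5.50, 5.17 and 5.26. The groups were separated by more than the whole range of the controls. The log2 change was -0.72 ± 0.08 (SE), or 1.64-fold lower (limma adjusted p = 0.000115), and it stayed between -0.78 and -0.68 with any 1 animal left out. Within the low spike-in set it was -0.65, with an adjusted p = 0.0529. The level is modest on this scale, and a second probe set, with a mean of 3.86, under the lower quartile on each of the arrays, had a log2 change of 0.02.

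Bcl2l11, which encodes the BH3-only protein BIM, an activator of the pore formers, had the largest change among the members on the probe sets that stand for them. Its log2 level in controls was 6.66, 7.14, 6.99, 6.58 and 6.68, and in treated livers 5.63, 6.21, 6.20, 6.37 and 5.93. The highest treated animal was below the lowest control, control replicate 4. The log2 change was -0.74 ± 0.14 (SE), 1.67-fold lower (limma adjusted p = 0.0044), and -0.51 within the low spike-in set (adjusted p = 0.39). It was the one of its 5 probe sets that passed when probe sets were tested singly, and the other 4 had log2 changes between -0.28 and 0.19. Of these 4, 1456005_a_at was nearly as bright (mean 6.30 against 6.44). Its log2 change was -0.28 with overlapping groups, and -0.01 within the low spike-in set.

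Casp6 encodes an executioner caspase. Its log2 level was 9.29, 9.43, 9.51, 9.43 and 9.06 in controls and 8.55, 8.82, 8.84, 8.95 and 8.45 in treated livers. Again no treated animal reached the lowest control. This was a log2 change of -0.62 ± 0.11 (SE), 1.54-fold lower (limma adjusted p = 0.00295), and within the low spike-in set it was larger, at -0.71 (adjusted p = 0.136). Averaging in its second, dim probe set (mean 4.97, log2 change -0.03) reduced the value to -0.32 and ended the call.

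Bok is a BCL2 relative that can form pores in the mitochondrial membrane without the usual activators. Its log2 level was 9.08, 9.60, 9.04, 8.95 and 8.74 in controls and 8.35, 8.63, 8.60, 8.73 and 8.24 in treated livers. The lowest control lay only just above the highest treated animal, and control replicate 2 stood above the rest. The change came to -0.57 ± 0.14 (SE; limma adjusted p = 0.0151), and it was -0.44 without control replicate 2, still called. Within the low spike-in set it was -0.44 as well (adjusted p = 0.482).

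Aifm1 encodes a mitochondrial flavoprotein that supports respiration and, when released, can take part in caspase-independent death. Its log2 level was 11.51, 11.50, 11.44, 11.30 and 11.37 in controls and 11.28, 11.19, 11.31, 11.17 and 11.17 in treated livers. Control replicate 4 was the control that overlapped with the treated range. This was a log2 change of -0.20 ± 0.06 (SE; limma adjusted p = 0.0431). The call was the least stable of the 7: it was lost in 8 of 10 omissions of a single animal (all but control replicate 4 and phenobarbital replicate 3), it was not called when probe sets were tested singly (adjusted p = 0.051), and within the low spike-in set the value was -0.08 (adjusted p = 0.801).

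Among the inhibitors of caspases, Xiap and Birc3 fell. XIAP binds and blocks caspases 3, 7 and 9. The log2 level of Xiap was 10.90, 10.88, 10.99, 10.84 and 10.92 in controls and 10.53, 10.37, 10.57, 10.45 and 10.58 in treated livers, so the groups were far apart for their small spread. The log2 change was -0.41 ± 0.06 (SE), 1.33-fold lower (limma adjusted p = 0.00154), and -0.34 within the low spike-in set (adjusted p = 0.194). Birc3 encodes cIAP2, a ubiquitin ligase of TNF receptor signalling that favours survival. Its log2 level was 8.81, 8.64, 8.76, 8.50 and 8.76 in controls and 8.03, 8.31, 8.49, 8.37 and 8.12 in treated livers. Here control replicate 4 was the lowest control and lay just above phenobarbital replicate 3. The log2 change of Birc3 was -0.43 ± 0.09 (SE), 1.35-fold lower (limma adjusted p = 0.00825), and -0.24 within the low spike-in set (adjusted p = 0.541). Birc2, which encodes the close relative cIAP1, went from a log2 level of 8.73 ± 0.03 to 8.62 ± 0.18 (SD, n = 5) and did not pass (limma adjusted p = 0.334). Cflar, the gene of the caspase 8 inhibitor FLIP, went from 10.09 ± 0.09 to 9.89 ± 0.24 and did not pass either (adjusted p = 0.192).

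The stretches of 250 bases before the annotated start of the 4 called genes with the smallest adjusted p are shown because these genes were lower together. The sequences are those of RefSeq on GRCm38.p6, which holds 43 such stretches for 31 of the 35 members; where a gene has several starts, the one with the lowest coordinate is given. Capitals mark the GC box GGGCGG, bound by SP factors, and the forkhead motif TGTTTAC, bound by FOXO factors, each searched on both strands.
Apaf1, chr10:91082744-91082993, minus strand: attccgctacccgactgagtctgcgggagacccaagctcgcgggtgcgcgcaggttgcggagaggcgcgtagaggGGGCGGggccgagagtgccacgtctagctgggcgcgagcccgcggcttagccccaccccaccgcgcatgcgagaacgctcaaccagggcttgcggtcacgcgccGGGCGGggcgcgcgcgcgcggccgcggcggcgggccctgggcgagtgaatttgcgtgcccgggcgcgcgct
Xiap, chrX:42067586-42067835, plus strand: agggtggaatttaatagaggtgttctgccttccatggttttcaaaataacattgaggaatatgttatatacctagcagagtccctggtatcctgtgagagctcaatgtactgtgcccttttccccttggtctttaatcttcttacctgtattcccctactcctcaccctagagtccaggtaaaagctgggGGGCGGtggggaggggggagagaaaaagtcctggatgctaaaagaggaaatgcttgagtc
Casp6, chr3:129901165-129901414, plus strand: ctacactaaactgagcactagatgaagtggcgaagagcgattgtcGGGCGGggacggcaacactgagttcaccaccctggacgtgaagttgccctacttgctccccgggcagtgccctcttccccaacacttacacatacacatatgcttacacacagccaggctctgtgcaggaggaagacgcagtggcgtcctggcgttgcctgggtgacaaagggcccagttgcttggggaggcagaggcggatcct
Bcl2l11, chr2:128125788-128126037, plus strand: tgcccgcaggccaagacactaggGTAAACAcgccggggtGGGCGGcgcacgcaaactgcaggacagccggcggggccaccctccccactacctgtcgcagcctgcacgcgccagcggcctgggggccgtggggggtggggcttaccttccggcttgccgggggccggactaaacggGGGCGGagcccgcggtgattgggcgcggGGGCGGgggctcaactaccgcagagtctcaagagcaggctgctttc
All 4 hold a GC box, which 32.7% of the 32851 annotated stretches of this length also hold. Of the other called genes, Bok has a GC box in its stretch, and Aifm1 and Birc3 have none. The Xiap stretch with the highest coordinate, not shown, lacks it too. Members that were not called, such as Bad, Bcl2, Casp9 and Fas, also hold a GC box. Of the 43 stretches of the members 25 hold one, and the median GC content was 60.4% over the 43 stretches of the members against 52.4% over all. The forkhead motif stands in the stretch of Bcl2l11 on the reverse strand and in 1 of those of Bbc3, against 3.17% of all stretches. The direct repeat of AGGTCA with 4 bases between its copies, a motif of CAR with its partner RXR, was found in no stretch of a member and in 5 of all 32851. The E2F motif TTTCGCGC was found in 1 stretch of Bcl2l1 (0.256% of all stretches hold it), its variant TTTGGCGC in none of the members (0.417%), and the TATA box TATAAA in 1 stretch each of Cflar and Xiap (12.4%), all on either strand. Copies of 1 motif can overlap each other, and these matches describe the letters of the windows only.

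The other BH3-only genes gave no call on the probe set that stands for them. Bbc3, which encodes the p53-induced activator PUMA, went from a log2 level of 7.69 ± 0.16 to 7.74 ± 0.48 (SD, n = 5), and the spread of the treated animals was wide, from 7.06 to 8.33. Bid, which links death receptors to mitochondria, had a log2 change of -0.10 (95% interval -0.36 to 0.16), Bad one of -0.05 (-0.18 to 0.09) and Bik one of -0.07 (-0.48 to 0.34). Of the dimmer probe sets of Bid, 1 was called lower (-0.32, limma over all probe sets, adjusted p = 0.0341) and the other was at 0.31 and not called (adjusted p = 0.0984). Pmaip1, which encodes NOXA, lay at 3.64 and 3.57, under the lower quartile on each array, and is not shown to be above background. On the probe sets that stand for them none of these 5 genes passed limma (adjusted p between 0.572 and 0.88). Bmf encodes a BH3-only protein tied to cell attachment. On the probe set that stands for it, Bmf stood at 5.59 ± 0.43 and 5.58 ± 0.27 (adjusted p = 0.955). That probe set is of the type _x_at, whose probes can also bind unrelated transcripts. In controls another probe set, 1454880_s_at, was brighter, with a mean of 6.17. Its mean in treated livers was 4.64, which left it lower over all arrays (5.4 against 5.58). The choice between them was thus set by the treated livers.

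Bmf was lower on 1454880_s_at. The log2 level there was 6.21, 6.30, 6.48, 5.72 and 6.14 in controls and 4.69, 4.49, 4.80, 4.81 and 4.39 in treated livers. No treated animal came near the lowest control, which was control replicate 4. The log2 change was -1.53 ± 0.13 (SE) with an adjusted p = 2.4e-05 in limma over all 45037 probe sets that are not controls. Within the low spike-in set the value was -1.08 (limma adjusted p = 0.0174), which sets the treated animals against control replicate 4 alone and assumes that this array varies like the others. The log2 changes on the other Bmf probe sets were -0.02 and -0.05. The suffix _s_at marks a probe set whose probes match more than 1 transcript, and which transcripts each of the 3 reads was not tested. This probe set was singled out after its values were seen.

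**Figure D2:**
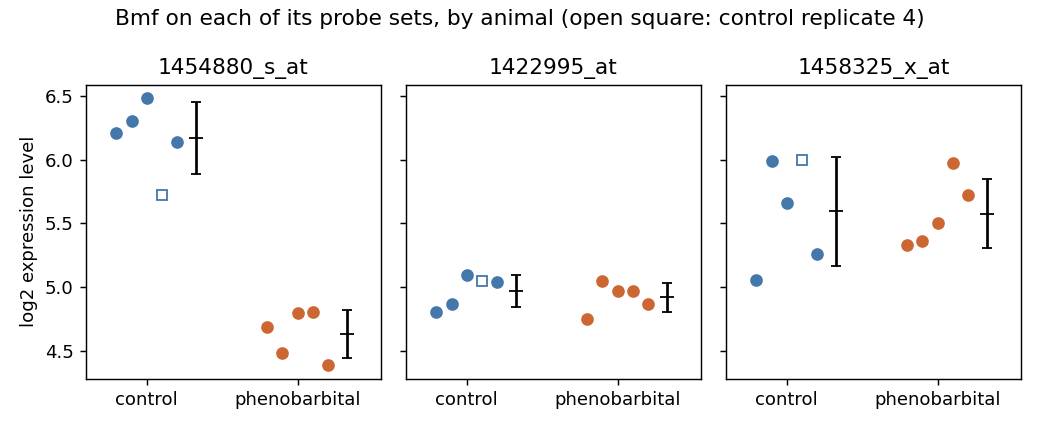
Log2 expression level of Bmf in each animal on each of its 3 probe sets, on a common scale, with the mean and SD of each group (n = 5) to the right of its points. On 1454880_s_at the treated animals lie between 4.39 and 4.81 and the controls between 5.72 and 6.48, while on the other probe sets the groups overlap.

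Among the pore formers, Bak1, which permeabilises the outer mitochondrial membrane, had a log2 level of 5.87, 5.43, 5.66, 5.50 and 5.50 in controls and 5.73, 5.78, 5.82, 6.01 and 5.82 in treated livers. Control replicate 1 lay within the treated range and the other controls below it. The difference was 0.24 ± 0.09 (SE; limma adjusted p = 0.0713), and without control replicate 1 it was 0.31 and passed (adjusted p = 0.0204). It also passed after quantile normalization (0.29) and median centring (0.27), so its side of the threshold turned on the scaling.

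The initiator caspases were not called. Casp8, the caspase of death receptors, had a log2 level of 9.0, 9.05, 8.81, 8.87 and 8.98 in controls and 8.96, 8.97, 8.92, 9.06 and 9.03 in treated livers, and the groups overlapped. Its log2 change was 0.05 (95% interval -0.09 to 0.19). Casp9, the caspase of the apoptosome, had a log2 level of 7.96, 7.70, 7.68, 7.86 and 7.68 in controls and 7.84, 8.18, 8.26, 7.99 and 7.41 in treated livers. The treated animals spanned the control range on both sides, and the log2 change was 0.16 (95% interval -0.13 to 0.45). Casp2, a caspase of DNA damage and stress signalling, went from 7.59 ± 0.13 to 7.39 ± 0.09 (SD, n = 5) and missed the threshold (limma adjusted p = 0.0728).

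Of the factors that leave the mitochondrion, 3 besides Aifm1 were measured. Cycs, the gene of cytochrome c, stood at a log2 level of 12.90 ± 0.13 in controls and 12.91 ± 0.07 in treated livers (SD, n = 5), with a 95% interval of the change from -0.15 to 0.16. Diablo, whose protein relieves caspases from XIAP, stood at 8.66 ± 0.13 and 8.72 ± 0.06 (interval -0.09 to 0.21). Endog, the gene of a mitochondrial nuclease, stood at 10.29 ± 0.17 and 10.39 ± 0.03 on its brightest probe set, and on its other, nearly as bright, the log2 change of 0.31 ± 0.07 (SE) passed limma over all probe sets (adjusted p = 0.00979). Thus Endog was called higher or not depending on the probe set.

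Death receptors and their adaptors showed no call. Fas, a receptor that can kill hepatocytes, had a log2 level of 8.36, 8.54, 8.20, 8.18 and 8.03 in controls and 8.26, 8.23, 8.34, 8.42 and 8.12 in treated livers. All treated animals lay within the control range, and the log2 change was 0.01 (95% interval -0.19 to 0.21). Its adaptor Fadd had a log2 change of 0.13 (-0.03 to 0.29), the TRAIL receptor Tnfrsf10b, a dim gene at 4.41 and 4.48, one of 0.07 (-0.09 to 0.23), and the TNF receptor Tnfrsf1a one of 0.08 (-0.07 to 0.22). Tradd, the adaptor of the TNF receptor, went from 7.42 ± 0.11 to 7.16 ± 0.19 (SD, n = 5; limma adjusted p = 0.0635), and it passed without control replicate 4 (-0.30, adjusted p = 0.0324). On a dimmer probe set of Tradd the log2 change was 0.33 ± 0.09 (SE; limma over all probe sets, adjusted p = 0.0274), so the probe sets of this gene went opposite ways.

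The inflammatory caspases were not called. Casp1, which processes interleukin-1 beta and is best known in macrophages, went from a log2 level of 6.31 ± 0.16 to 6.09 ± 0.23 (SD, n = 5; limma adjusted p = 0.177). Casp12, a caspase of the endoplasmic reticulum in rodents, went from 6.13 ± 0.11 to 6.06 ± 0.10 (adjusted p = 0.521).

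**Figure D3:**
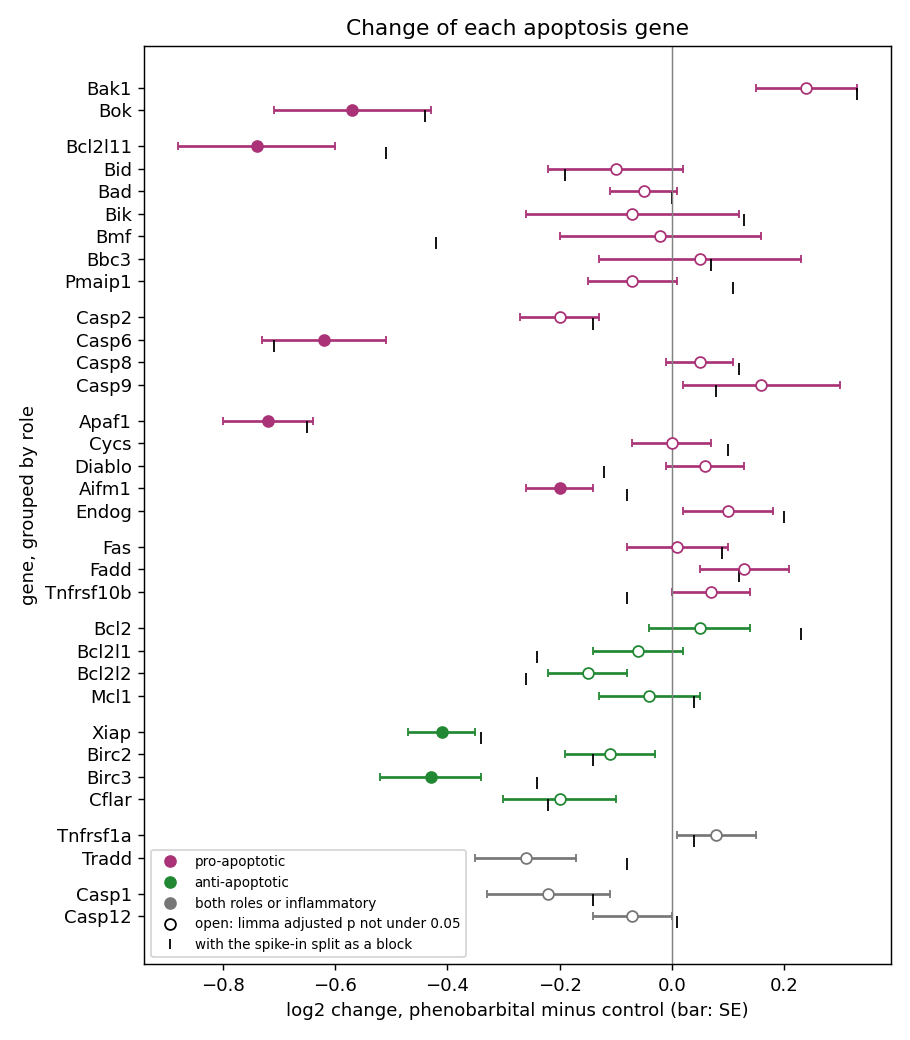
Log2 change (phenobarbital minus control, horizontal axis; bar: SE) of the 33 measured genes, grouped by role from pore formers at the top to inflammatory caspases at the bottom. Filled circles passed limma at an adjusted p of 0.05; all 7 lie left of 0, between -0.74 and -0.20, and the black ticks give the value with the spike-in split as a block.

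None of the 4 BCL2 survival genes was called on its brightest probe set. Bcl2, the founding member, had a log2 level of 6.12, 6.15, 5.89, 5.85 and 6.13 in controls and 5.93, 6.18, 6.32, 6.07 and 5.90 in treated livers, with overlapping groups and a log2 change of 0.05 (95% interval -0.15 to 0.26). Bcl2l1, which encodes BCL-XL, a main survival protein of hepatocytes, had a log2 level of 8.59, 8.80, 8.88, 8.99 and 8.81 in controls and 8.68, 8.81, 8.72, 8.90 and 8.64 in treated livers. All treated animals lay within the control range, and the log2 change was -0.06 (95% interval -0.24 to 0.11). Mcl1, the other main survival protein of hepatocytes, had a log2 level of 10.64, 10.66, 10.72, 10.57 and 10.67 in controls and 10.81, 10.40, 10.54, 10.46 and 10.83 in treated livers. The treated animals were more spread than the controls, on both sides of them, and the log2 change was -0.04 (95% interval -0.24 to 0.15). Bcl2l2, which encodes BCL-W, went from 8.13 ± 0.10 to 7.98 ± 0.11 (SD, n = 5; limma adjusted p = 0.156).

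Several anti-apoptotic genes differed between their own probe sets. Of 6 probe sets of Mcl1, 3 were called lower, with log2 changes of -0.65, -0.43 and -0.31. All 3 are of the type _x_at, whose probes can also bind unrelated transcripts, and the 3 others, of the type _at, had changes from -0.21 to -0.01 and were not called. Cflar was lower on 1 of 5 (-0.81 ± 0.15 SE, limma adjusted p = 0.00481), and Xiap on 3 of 7. The widest change of Xiap, -1.56 ± 0.28 (SE), was on a probe set where control replicate 4 stood at 7.35 and the other controls between 8.06 and 8.90, and its value within the low spike-in set was -0.65. Bcl2l1 and Bcl2 were each called higher on 1 dimmer probe set (0.47 and 0.27), and Bcl2l2 was called on 2, higher on the one (0.36) and lower on the other (-0.50). That of Bcl2l1 had a mean of 4.13, level with the lowest lower quartile of the arrays. On the lower one of Bcl2l2, control replicate 4, at 4.83, lay within the treated range of 4.76 to 5.00. Its value within the low spike-in set was 0.06, and the higher calls of Bcl2l1, Bcl2 and Bcl2l2 had 0.33, 0.14 and 0.13 there. Of all 85 probe sets 21 were called, 16 lower and 5 higher, against a background of 18.7% of 45037 probe sets, 11% lower and 7.7% higher. Of the 23 genes with more than 1 probe set, Bcl2l2 was the one with calls in both directions.

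**Figure D4:**
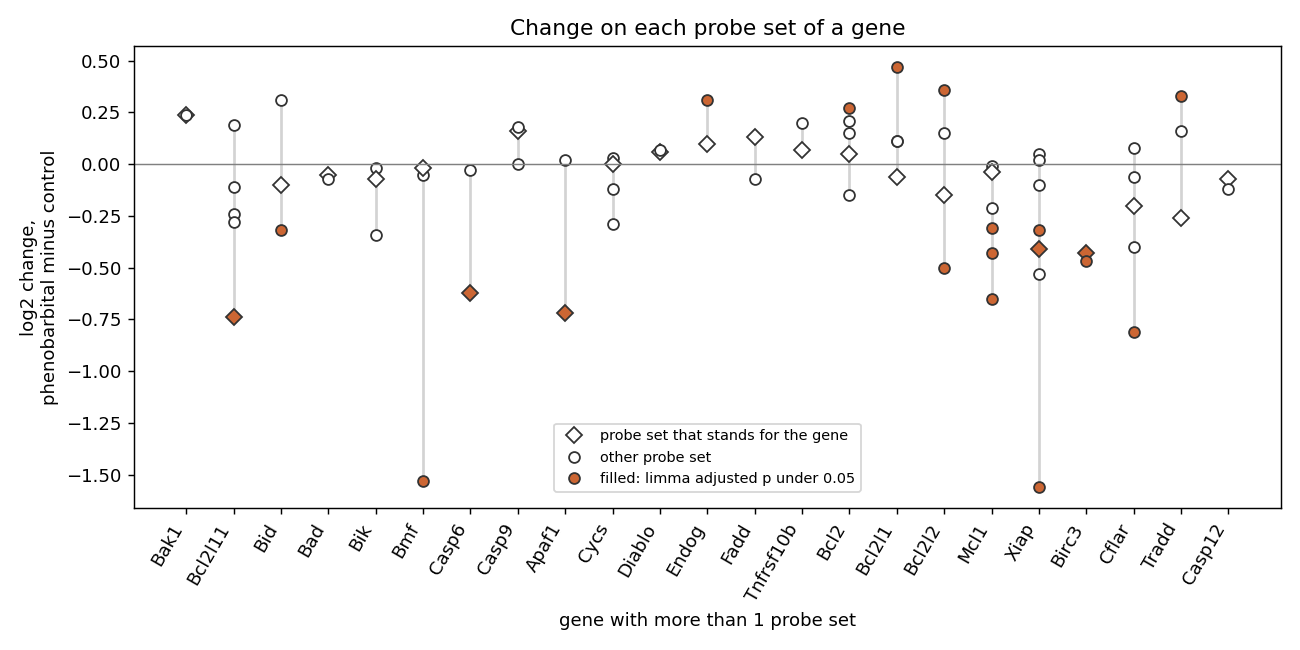
Log2 change (phenobarbital minus control, vertical axis) on each probe set of the 23 genes that have more than 1, with diamonds for the probe set that stands for the gene, filled where limma over all probe sets gave an adjusted p under 0.05. Bmf and Xiap reach -1.53 and -1.56 on a probe set other than the diamond, and the 3 filled points of Mcl1 lie below its diamond.

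Pro- and anti-apoptotic genes were then set side by side. The 21 measured pro-apoptotic genes had 5 lower, none higher and a median log2 change of -0.02, with 11 changes below 0 and 10 above. The 8 anti-apoptotic genes had 2 lower, none higher and a median of -0.13, with 7 of 8 changes below 0, while over all genes 20.3% were called and the median was 0.01, or -0.04 over the brighter genes. The share called was 23.8% in the former class and 25.0% in the latter. Among the 4 other measured genes, which act in both directions or in inflammation, none was called. The anti-apoptotic median was -0.06 after quantile normalization and -0.10 after median centring, and -0.23 within the low spike-in set; the pro-apoptotic median was 0.02, 0.02 and 0 under the same settings. Averaged over the anti-apoptotic genes, with each gene set to its own mean over the 10 animals, controls lay between 0.062 and 0.104 and treated livers between -0.198 and -0.02. The pro-apoptotic mean lay between 0.009 and 0.151 in controls and between -0.229 and 0.064 in treated livers, with overlap. Phenobarbital replicate 1 was the lowest in both classes. The anti-apoptotic class was not uniform. Its 4 caspase inhibitors, Xiap and Birc3 among them, had a median log2 change of -0.30, and its 4 BCL2 survival genes -0.05. The mean log2 level of the inhibitors was 9.55 to 9.65 in controls and 9.10 to 9.42 in treated livers. That of the survival genes was 8.38 to 8.43 and 8.30 to 8.38. The anti-apoptotic class was the brighter, with a mean log2 level of 8.98 to 9.02 in controls, against 7.78 to 7.92 for the pro-apoptotic class. Lower calls were commoner among bright genes, and the upper quartile of all values was lower on the treated arrays. The difference between the classes, and the part of brightness in it, were not tested.

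**Figure D5:**
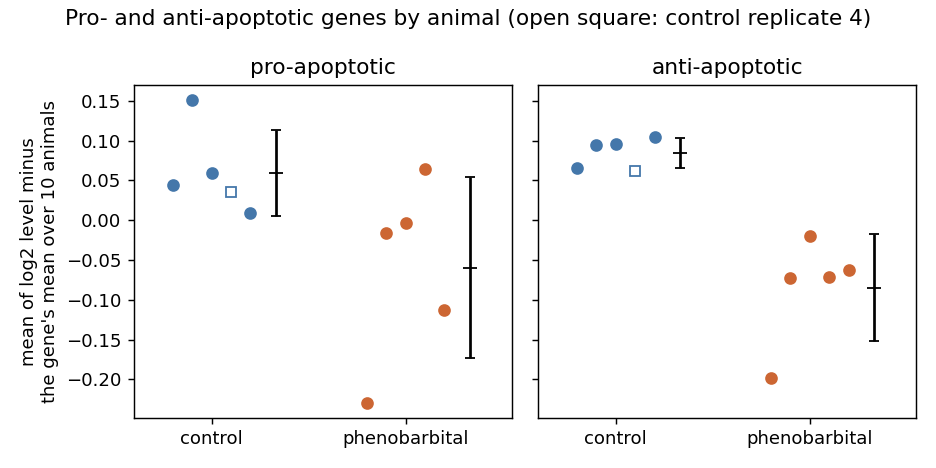
Mean over the 21 pro-apoptotic (left) and the 8 anti-apoptotic genes (right) of each gene's log2 level minus its mean over the 10 animals, for each animal, with the mean and SD of each group (n = 5). The anti-apoptotic means do not overlap between the groups, and the pro-apoptotic means do. Within the anti-apoptotic class the median log2 change was -0.30 for the 4 caspase inhibitors and -0.05 for the 4 BCL2 survival genes. The anti-apoptotic genes are the brighter class, with a mean log2 level in controls of 8.98 to 9.02 against 7.78 to 7.92.

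Of 44 further genes of the pathway, 37 were measured, and 11 of these were called, 5 higher and 6 lower (20.3% of all genes were). Bag3, a cochaperone that opposes apoptosis and clears damaged proteins, rose from a log2 level of 10.01 ± 0.22 to 11.13 ± 0.42 (SD, n = 5), a log2 change of 1.11 ± 0.17 (SE; limma adjusted p = 0.00154; 0.96 within the low spike-in set). Its change was larger than that of any member on the probe set that stands for it, and every treated animal was above every control. The mitochondrial pore regulator Ppif (0.54), the p53-related genes Siva1 (0.45) and Pidd1 (0.40), whose product assembles a platform for caspase 2, and Mdm2 (0.24), the ubiquitin ligase that restrains p53, were the others called higher. Called lower were the large inhibitor of apoptosis gene Birc6 (-0.43), Bcl2l13 (-0.32), Bag4 (-0.31), Bnip3 (-0.30), a mitochondrial gene of hypoxia and mitophagy, the deubiquitinase Cyld (-0.30) and the cochaperone Bag1 (-0.21). None of the 11 passed within the low spike-in set, where the value of Birc6 turned to 0.07 and that of Siva1 was 0.10. Of the lower calls, Birc6 was lost in 8 and Bag1 in 7 of 10 omissions of a single animal.

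Cells other than hepatocytes express many of these genes, and in whole liver fewer cells of a type and less RNA per cell cannot be told apart. Of 7 stellate cell markers 4 were lower (Lrat, Pdgfrb, Reln and Rgs5, log2 changes from -0.86 to -0.43), and the mean log2 level of the list was 8.33 to 8.42 in controls and 7.86 to 8.27 in treated livers. Of 7 endothelial markers 5 were lower (Kdr, Stab2, Clec4g, Cdh5 and Tek, from -0.42 to -0.30), with 7.94 to 8.40 and 7.64 to 8.09. Among 11 Kupffer cell markers 1, Timd4, was lower, with 8.16 to 8.62 and 8.20 to 8.60. None of 8 lymphocyte and 4 neutrophil markers was called, and of 4 cholangiocyte markers Epcam was higher. The lymphocyte list was dim, at 4.48 to 4.69 in controls and 4.55 to 4.69 in treated livers. So was the neutrophil list, at 4.52 to 4.87 and 4.47 to 4.66, where array medians were 5.42 to 5.50. At such levels the lack of a call does not show that these cells were unchanged. Over all genes 11.3% were lower, as were 19.8% of the brighter genes. Control replicate 4 stood at 8.04 for the endothelial list, within the treated range, and at 8.41 for the stellate list. Within the low spike-in set the median log2 changes were -0.22 for the endothelial list and -0.50 for the stellate list. For the Kupffer cell list the median was -0.25 there and -0.07 over all arrays, and control replicate 4, at 8.62, was its highest control. The remaining lists had medians between -0.17 and 0.03 within the low spike-in set. With 1 animal left out, Kdr and Cdh5 were called in 3 of 10 omissions, Timd4 in 4 and Clec4g in 5. Stab2, Tek and the 4 stellate markers were called in all 10. The part of these cell types in the lower values of the 7 members was not tested.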

How the data were processed

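Total RNA of whole liver was labelled by 3' in vitro transcription and hybridised to Affymetrix arrays, per the labels' protocols; the submitters' processing notes name the GCOS software with no version. The authors deposited log2 values spanning 2.34 to 15.13, and the scale was read from this range. How probes were summarised and normalised was not given in the sources used here. Array medians were 5.42 to 5.50, and the values were used as deposited. The precision is limited by the number of arrays (n = 5 per group).

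Symbols came from the platform annotation (34945 probe sets with 1 symbol, 932 with several, 9160 unlisted, 64 controls). For each of 18193 genes the brightest probe set on average was used, with no filter on dim values. Phenobarbital was compared with control in limma 3.58.1 (R 4.3.3; lmFit and eBayes, two-sided, Benjamini-Hochberg over all genes, adjusted p under 0.05), and probe sets were also fitted singly. On simulated data of 18193 genes, 5 against 5, the fit recovered 74.2% of log2 changes of 0.5 and 99.6% of those of 1, with 8.8 false calls a run. The simulation changed far fewer genes than were called here, with independent noise and no spike-in split. Its recovery and its false calls therefore need not hold for the real fit. The spike-in split divides the arrays at the largest gap in the mean of 24 poly-A spike-in probe sets. The members, classes, lists and alternatives were chosen with earlier results of these data known. All measured members are named; values of every animal are given for called members and for 7 fixed by name, and other pathway genes are named where called. Figures were drawn with matplotlib 3.10.9.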

Additional observations from a re-analysis of the deposited data

Results flagged for a closer look

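In 66 groups of 5 animals (33 genes in each treatment), 3 single values lay far from the other animals of their group by Dixon's test, and chance gives about 1 in 20 groups. Phenobarbital replicate 1 was low for Bid, at a log2 level of 6.93 against 7.35 to 7.51 in the other treated animals. The same animal was low for Bik, at 6.98 against 7.86 to 8.17. Phenobarbital replicate 5 was low for Endog, at 10.34 against 10.39 to 10.41. On these probe sets, which stand for the genes, none of the 3 genes was called with all animals or without the animal in question.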

How the results depend on the processing

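The 7 lower calls became 6 to 8 with 1 animal left out, and 5 to 9 under the scalings, the brighter genes alone, the mean of probe sets, single-transcript probe sets, trend and robust variance, array weights and the replicate block, and 0 with the spike-in split as a block. Higher calls numbered 1 after quantile normalization, median centring and array weights (Bak1 each time), 2 with the mean of probe sets and 2 on single-transcript probe sets, and 0 to 1 with an animal left out. Of the other pathway genes, 3 to 7 were lower and 4 to 8 higher with an animal left out, 3 were higher on single-transcript probe sets, and 0 and 0 passed with the spike-in split as a block. Of the member probe sets, 12 to 22 were lower and 3 to 8 higher with an animal left out, 8 were higher after median centring, and 1 lower and 0 higher passed with the spike-in split as a block. Control replicate 4 gave the highest of these counts when it was left out: 22 probe sets lower, 8 higher and 8 other pathway genes higher. The count of 3 other pathway genes lower came from omitting any one of control replicates 1 and 2 and phenobarbital replicates 1 and 2. That of 3 probe sets higher came from omitting control replicate 3, phenobarbital replicate 2 or phenobarbital replicate 4.

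The pro-apoptotic median went from -0.08 to 0.02 with an animal left out. The anti-apoptotic median of -0.13 was -0.06 after quantile normalization, -0.19 when probe sets were averaged and -0.23 with the spike-in split as a block. Tradd turned to 0.33 and Mdm2 to -0.16 on a single-transcript probe set, and Birc6 to 0.07 with the spike-in split as a block; the cause was not tested. Bmf, Mcl1 and Cflar were called lower with the mean of probe sets. Over all genes, 143 were called with the spike-in split as a block against 3692 without it, and the calls fell to 2431 without phenobarbital replicate 2 and 2460 without control replicate 2. The share of higher calls over all genes was 44.4% as deposited, 59.4% after quantile normalization, 31.8% when dim genes were left out and 59.0% after median centring. Replicate numbers are shared between the groups but mark separate animals, and the deviations of same-numbered arrays correlated between -0.0238 and 0.116, so the numbers were not taken as pairs; with the replicate number as a block 6 members were lower, Aifm1 having lost its call (-0.20), and 0 higher, and no other member's call changed. Even in the simulation, which is simpler than the data, 74.2% of log2 changes of 0.5 were recovered and 99.6% of those of 1. Genes without a call are thus not shown to be unchanged.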
